A study of Mus musculus with 4 samples.

Results

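Transcripts of 10 genes of the unfolded protein response of the endoplasmic reticulum (ER) were followed in mouse bone marrow-derived dendritic cells (BMDC) exposed to tumour cells. The genes were Hspa5, Hsp90b1, Xbp1, Atf4, Dnajb9, Herpud1, Pdia4, Sdf2l1, Calr and Edem1, taken by symbol from the annotation of the array. They were 10 of 18193 measured genes and carried 23 of 45037 probe sets. Each of the 23 was annotated to 1 gene only. In 21 of them the signal exceeded the floor of 44.3, the 50th percentile of all signals, on all 4 arrays. The other 2, 1 for Atf4 and 1 for Pdia4, were under the floor on every array and give no ratio.

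The RNA came from BMDC of male C57BL/6 mice, 6 to 8 weeks old, grown for 7 days in medium with GM-CSF at 500 U/ml, which turns marrow progenitors into dendritic cells. For the live coculture, 1 cell of 1D8, a line from mouse ovarian surface epithelium, was present for every 5 BMDC. For the irradiated coculture 1D8 was given 50 Gy first. In the conditioned medium sample BMDC were given 25% (v/v) 1D8 supernatant and no tumour cells. Control BMDC were cultured without 1D8 cells or their supernatant. All samples were sorted for staining with an antibody to CD80 before RNA extraction. The labels do not say how many mice contributed to a sample. Each condition had 1 biological sample and 1 array, so no value has an error from replicates, no test was run, and higher and lower describe these 4 arrays only.

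The ER folds and modifies proteins that enter the secretory pathway. Unfolded protein draws the chaperone encoded by Hspa5 (BiP) away from the sensor proteins IRE1, PERK and ATF6. IRE1 splices the Xbp1 transcript into the form that encodes the active transcription factor, PERK slows translation while favouring that of Atf4, and ATF6 is cleaved into a transcription factor. Together they raise chaperones, disulfide isomerases and the machinery that returns misfolded proteins to the cytosol for degradation. In mice XBP1 is known to be needed for the development of dendritic cells. Spliced and unspliced Xbp1 transcripts were not told apart here, and ATF4 is controlled largely at translation, which an array does not measure.

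ATF6 and XBP1 act through the ER stress response element. The 300 bases from 250 before to 50 after the RefSeq start of each gene (GRCm38.p6) were searched on both strands, and all 10 genes matched the table. The motifs were the ER stress response element ERSE (CCAAT and CCACG with 9 bases of any kind between them), ERSE-II (ATTGG and CCACG with 1 base between them), the XBP1 element UPRE (TGACGTGG) and the C/EBP-ATF element bound by ATF4 (TGATGNAAT). Only these letters were searched, so variant forms of the motifs were not counted, also in genes without a hit. None of the hits below overlap. An ERSE was present in 3 of the 10 genes, Hspa5, Hsp90b1 and Calr, and in 0.119% of all 32851 promoters in the table. ERSE-II was present in Herpud1 and in 0.0365% of all promoters. These letters of UPRE (0.676% of all promoters) and of the C/EBP-ATF element (0.965%) were in none of the 10 windows. The 4 promoters with a hit are printed 5′ to 3′ in the direction of the gene, with the motif in capitals. Of these 4 genes 3 were lower than the control at every probe set on all treated arrays, and the probe sets of Hsp90b1 disagreed. Genes without a hit were lower too: Sdf2l1 at its only probe set on all treated arrays, and Edem1 at both probe sets in both cocultures. A link between motif and signal was not tested.
Hspa5 (chr2:34771840-34772139, plus strand): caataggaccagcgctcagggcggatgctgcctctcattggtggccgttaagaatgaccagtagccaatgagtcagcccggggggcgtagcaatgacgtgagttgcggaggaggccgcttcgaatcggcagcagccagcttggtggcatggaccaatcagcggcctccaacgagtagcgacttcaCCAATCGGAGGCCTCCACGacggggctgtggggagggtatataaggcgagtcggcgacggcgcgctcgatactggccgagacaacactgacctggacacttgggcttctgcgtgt
Hsp90b1 (chr10:86705395-86705694, minus strand): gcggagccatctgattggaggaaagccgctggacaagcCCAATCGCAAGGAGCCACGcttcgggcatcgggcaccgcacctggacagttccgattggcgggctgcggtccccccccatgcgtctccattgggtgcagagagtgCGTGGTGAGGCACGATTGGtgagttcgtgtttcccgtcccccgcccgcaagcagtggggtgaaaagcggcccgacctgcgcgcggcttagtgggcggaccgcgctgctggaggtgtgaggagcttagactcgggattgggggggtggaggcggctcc
Calr (chr8:84846882-84847181, minus strand): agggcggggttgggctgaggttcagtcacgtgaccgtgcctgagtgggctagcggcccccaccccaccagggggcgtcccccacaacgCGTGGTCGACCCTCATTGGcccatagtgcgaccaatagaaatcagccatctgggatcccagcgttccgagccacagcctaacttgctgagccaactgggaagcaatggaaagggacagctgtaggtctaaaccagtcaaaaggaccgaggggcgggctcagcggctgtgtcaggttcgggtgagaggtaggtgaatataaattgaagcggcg
Herpud1 (chr8:94386179-94386478, plus strand): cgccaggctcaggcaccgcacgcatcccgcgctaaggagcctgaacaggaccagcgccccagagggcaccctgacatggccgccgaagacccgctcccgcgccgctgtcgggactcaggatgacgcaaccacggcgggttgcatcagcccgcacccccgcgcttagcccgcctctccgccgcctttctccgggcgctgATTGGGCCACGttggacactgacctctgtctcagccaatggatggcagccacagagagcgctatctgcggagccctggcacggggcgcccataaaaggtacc
The matched letters lay 65 to 47 bases before the start in Hspa5, 162 to 144 in Calr on the opposite strand, and 52 to 42 in Herpud1. Hsp90b1 had a pair of ERSE, at 212 to 194 bases and, on the opposite strand, at 107 to 89 bases before the start.

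Against the control, the chaperone genes Hspa5 and Calr, the BiP partner Sdf2l1 and the degradation factor Herpud1 were lower on all 3 treated arrays at every probe set. Xbp1 and Atf4 were higher in both cocultures at every probe set above the floor, as were Pdia4 and Dnajb9, with 1 such probe set each. Few of these differences were large. At the brightest probe set of each gene, 0 of the 10 genes were at least 2-fold higher in the live coculture (3.36% of all genes were) and 0 were at least 2-fold lower (2.23% of all genes). In the irradiated coculture 1 gene, Xbp1, was at least 2-fold higher (3.47% of all genes) and 0 were lower (2.25%). In conditioned medium 0 were higher (2.30%) and 1, Hspa5, was lower (1.41%). These shares and those given below are over all 18193 genes. Of these genes 9847 were above the floor on all 4 arrays, as all 10 were. Raising signals to the floor pulls ratios toward 0, so shares among the 9847 genes may be larger. They were not computed.

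A threshold of 1.5-fold, chosen after the values were seen, shows the smaller differences. In the live coculture 4 of 10 genes were at least 1.5-fold lower, Hspa5, Herpud1, Sdf2l1 and Calr, against 7.74% of all genes, and 0 were higher, against 9.23%. In the irradiated coculture 3 were lower, Hspa5, Herpud1 and Sdf2l1 (8.15% of all genes), and 2 were higher, Xbp1 and Pdia4 (8.61%). In conditioned medium 2 were lower, Hspa5 and Calr (6.41%), and 0 were higher (7.90%). These shares too include genes with signals under the floor, so they may understate the share among genes as bright as the 10. Several of these 1.5-fold differences were lost under another setting. After quantile normalization the log2 ratio of Calr was -0.40 in live coculture and -0.45 in conditioned medium. With the mean over probe sets it was -0.48 for Herpud1 in live coculture, and in irradiated coculture -0.58, just short of 1.5-fold, for Hspa5 and 0.39 for Pdia4, whose mean includes a probe set under the floor. The median log2 ratio of the 10 genes was -0.44 for live coculture, -0.40 for irradiated coculture and -0.13 for conditioned medium. With the mean over probe sets of each gene these medians were -0.15, -0.16 and -0.07, and after quantile normalization -0.25, -0.30 and -0.03. Over the 9847 genes above the floor on all 4 arrays the medians as deposited were -0.04, -0.05 and 0.00 in the same comparisons. After quantile normalization they were -0.10, -0.09 and -0.05, so the 10 genes were then not below them in conditioned medium. With the mean over probe sets this background was not computed. The 3 comparisons share the control array, so a high or low signal there enters all of them. The closest measure of error was the spread between probe sets of a gene. Over 4092 genes with at least 2 probe sets above the floor, the difference between the log2 ratios of the 2 brightest, divided by the square root of 2, had an SD of 0.44 for live coculture, 0.41 for irradiated coculture and 0.40 for conditioned medium against the control. This SD is called the probe-set SD. It covers probe sets on the same arrays and leaves out variation between samples, so it does not say whether a difference would recur.

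**Figure D1:**
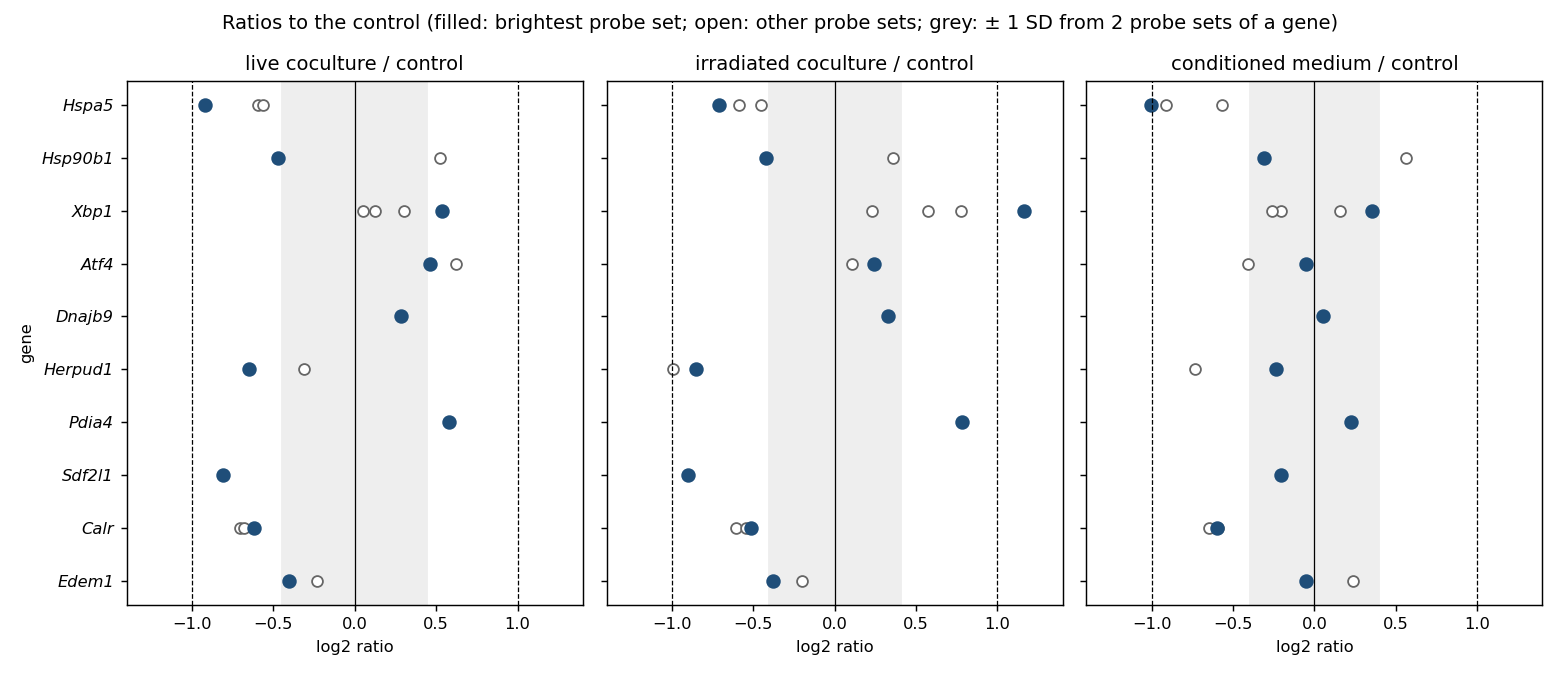
Log2 ratios of each treated array to the control (x axis) for the 10 genes (y axis), with the brightest probe set of a gene as a filled point and its other probe sets above the floor as open points. Dashed lines mark 2-fold, and the grey band marks 1 probe-set SD either side of 0; Hspa5 and Calr lie left of the band in every panel, and Hsp90b1 has a point on each side of 0.

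Among the chaperones, Hspa5 encodes BiP, the HSP70 of the ER and the gene used most often as a marker of this response. Its brightest probe set had signals of 2592 in live coculture, 2993 in irradiated coculture, 2447 in conditioned medium and 4900.3 in the control. All 3 treated arrays were below the control, by 1.89-fold, 1.64-fold and 2.00-fold (log2 ratios of -0.92, -0.71 and -1.002). The second probe set read 1618, 1628 and 1300.2 on the treated arrays in that order and 2445 in the control. The third read 614.2, 663.6 and 613.7 against 908.6. Every probe set was thus lower on every treated array, but the size depended on the probe set. For conditioned medium the log2 ratios ran from -1.002 to -0.57, and the brightest probe set lay just past the 2-fold line, which it no longer passed after quantile normalization (-0.82) or as the mean over probe sets (-0.83).

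Calr encodes calreticulin, a lectin chaperone that retains unfinished glycoproteins in the ER and takes part in loading MHC class I molecules. The brightest of its 3 probe sets had signals of 3245 in live coculture, 3485 in irradiated coculture, 3287 in conditioned medium and 4981 in the control. The treated arrays were close to each other and all were lower than the control, by 1.53-fold, 1.43-fold and 1.52-fold. Calr had the closest agreement between probe sets of the genes with several. The log2 ratios of its 3 sets spanned -0.70 to -0.62 in live coculture, -0.61 to -0.52 in irradiated coculture and -0.65 to -0.59 in conditioned medium. For Hspa5 and for Calr the ratio was larger in size than the probe-set SD in all 3 comparisons.

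Hsp90b1 encodes GRP94, the HSP90 of the ER, which folds Toll-like receptors and integrins. Its brightest probe set had signals of 2168 in live coculture, 2247 in irradiated coculture, 2423 in conditioned medium and 3008 in the control. Its other probe set ran the opposite way, with 1897 and 1691 in the cocultures and 1946 in conditioned medium against 1319 in the control. The log2 ratios to the control were -0.47 and 0.52 in live coculture, -0.42 and 0.36 in irradiated coculture, and -0.31 and 0.56 in conditioned medium. No direction is given for Hsp90b1.

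Sdf2l1 encodes an ER protein that works with BiP and its cochaperones. Its only probe set had signals of 409.5 in live coculture, 384.3 in irradiated coculture, 620.8 in conditioned medium and 716.4 in the control. The cocultures were 1.75-fold and 1.86-fold lower than the control, and conditioned medium was 1.15-fold lower. Both cocultures differed from the control by more than the probe-set SD, and conditioned medium by less. Dnajb9, also with 1 probe set, encodes ERdj4, a BiP cochaperone that restrains IRE1 and aids degradation. It had signals of 1082 and 1116 in the live and irradiated cocultures, 921.9 in conditioned medium and 887.6 in the control. Its log2 ratios to the control, 0.29, 0.33 and 0.05, were all smaller than the probe-set SD.

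Pdia4 encodes ERp72, an isomerase that forms and rearranges disulfide bonds. Its probe set above the floor had signals of 309.7 in live coculture, 356.4 in irradiated coculture, 241.5 in conditioned medium and 207.1 in the control. Unlike Hspa5, Calr and Sdf2l1, it was higher than the control, with log2 ratios of 0.58, 0.78 and 0.22. The last of these, for conditioned medium, did not reach the probe-set SD. The probe set of Pdia4 under the floor read 36.0, 34.2 and 27.5 on the treated arrays and 21.8 in the control.

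Herpud1 encodes a membrane protein that organises the ubiquitin ligase complex of ER-associated degradation. Its brightest probe set had signals of 219.2 in live coculture, 190.4 in irradiated coculture, 291.5 in conditioned medium and 343.5 in the control. The other read 285.1, 178.4 and 213.2 on the treated arrays in the same order and 354.1 in the control. Both were lower on all treated arrays and lowest in the irradiated coculture, with log2 ratios of -0.85 and -0.99 there. They differed more in conditioned medium, at -0.24 and -0.73. Edem1 encodes a lectin that hands misfolded glycoproteins to degradation. Its brightest probe set had signals of 1793 and 1829 in the live and irradiated cocultures, 2296 in conditioned medium and 2375 in the control. The log2 ratios of -0.41, -0.38 and -0.05 were smaller in size than the probe-set SD, and the other probe set of Edem1 was higher in conditioned medium, at 0.24.

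Of the transcription factors, Xbp1 differed from the control more than Atf4 did in the irradiated coculture. Its brightest probe set had signals of 4059 in live coculture, 6246 in irradiated coculture, 3570 in conditioned medium and 2795 in the control. The irradiated coculture was highest at all 4 probe sets. It was 2.24-fold higher than the control at the brightest, and the 4 log2 ratios ran from 0.23 to 1.16, with a mean of 0.69 that is under 2-fold. In the live coculture all 4 were above 0 but small, from 0.05 to 0.54. In conditioned medium 2 were above and 2 below 0, from -0.26 to 0.35, and no direction is given.

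The brightest probe set of Atf4 had signals of 1313 in live coculture, 1128 in irradiated coculture, 917.5 in conditioned medium and 951.7 in the control. The other above the floor read 1258, 878.5 and 613.6 on the treated arrays in that order and 815.4 in the control. The live coculture was highest at both, with log2 ratios to the control of 0.46 and 0.63, and conditioned medium was lowest at both, with -0.05 and -0.41. In the irradiated coculture the ratios of 0.24 and 0.11 fell short of the probe-set SD.

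**Figure D2:**
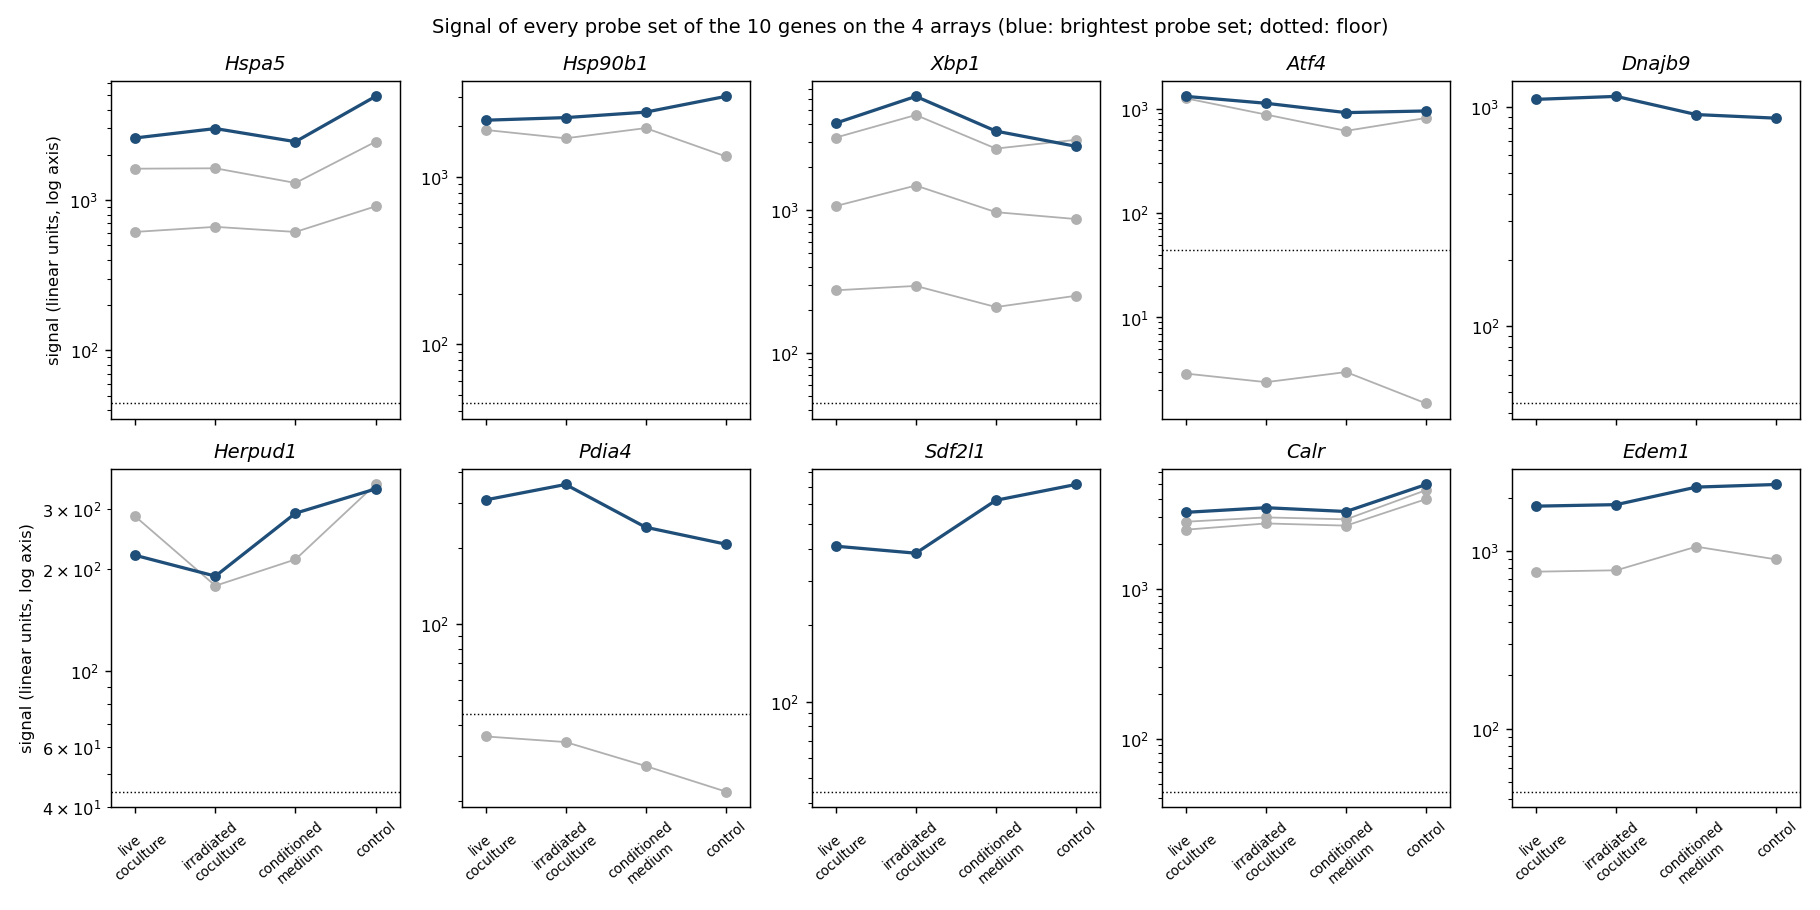
Signal on a log axis (y) on the 4 arrays (x) for each of the 10 genes, 1 line per probe set, with the brightest in blue and the floor of 44.3 dotted; axes differ between panels. Hspa5 and Calr are highest in the control, Sdf2l1 is lower in both cocultures than on the other arrays, and all 4 lines of Xbp1 peak in the irradiated coculture.

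Bulk signals do not tell fewer cells of a type from less RNA per cell, and signals of markers of dendritic and other cell types differed between arrays. All 12 dendritic cell and myeloid markers, Itgax and Cd74 among them, exceeded the floor on all arrays. Flt3 and Zbtb46 did so narrowly. Flt3 read 58.7 in live coculture, 46.7 in irradiated coculture, 73.2 in conditioned medium and 45.5 in the control. Zbtb46 read 63.1, 58.5, 56.5 and 56.1 in the same order. At the brightest probe sets 2, 3 and 2 of the 12 were at least 2-fold higher than the control on the live, irradiated and conditioned medium arrays, and 2, 1 and 0 lower. Cd80, the gene of the sort marker, read 378.2, 325.8 and 201.3 on the treated arrays in that order and 85.5 in the control. Itgam, an integrin of myeloid cells, read 2846, 3675 and 2740.5 against 1038. H2-Eb1, an MHC class II chain, ran the other way in the cocultures, with 1348 and 1653, 3528 in conditioned medium and 4244 in the control. The 12 markers had summed signals of 22587, 25000 and 28711 on the treated arrays and 29464 in the control. Of 12 epithelial and mesothelial markers, 5 were at least 2-fold higher with live tumour cells than in the control, 6 with irradiated ones and 0 in conditioned medium. Their summed signals were 2757, 3391, 793.4 and 474.8 in the same order of arrays. Krt19, a keratin, read 569.7 and 767.4 in the cocultures, and 22.2 in conditioned medium and 8.6 in the control, both under the floor. Of 8 neutrophil markers 4 were at least 2-fold lower in live coculture, 5 in irradiated coculture and 4 in conditioned medium, with summed signals of 838.5, 1010, 900.5 and, in the control, 2173. Mast cell and basophil markers, 6 genes, summed to 177.3, 281.0 and 705.9 on the treated arrays and 1232 in the control, with 2, 2 and 1 of them at least 2-fold lower. The 9 B cell and plasma cell markers summed to 2101, 2333, 1558 and 1787, of which Sdc1, also an epithelial syndecan, gave 1626, 1923, 1011 and 1166 at its brightest probe set, and the plasma cell gene Jchain was under the floor on every array. The probe sets of Sdc1 disagreed. A dimmer one read 500.6 and 847.8 in the cocultures, 353.4 in conditioned medium and 179.4 in the control, more than 2-fold higher in both cocultures, and another was lower in live coculture (314.5 against 378.4 in the control). In that list 0 genes were at least 2-fold higher at the brightest probe set, and 1, 1 and 0 of 9 were lower. Cd79b, of the B cell receptor, read 25.2 and 28.6 in the cocultures, under the floor, 73.5 in conditioned medium and 89.8 in the control. Cd79a read 33.4, 35.4, 68.1 and 78.1 on the arrays in that order, and Ms4a1, which encodes CD20, read 67.5, 56.6, 84.6 and 92.1. The probe sets of Ighm, the IgM heavy chain, disagreed, with 185.4, 141.0, 162.9 and 162.0 at the brightest and 27.7, 6.8, 241.5 and 301.8 at another. The 9 matrix markers summed to 1088, 1159 and 485.7 on the treated arrays and 463.7 in the control, with 3, 3 and 0 at least 2-fold higher. The 6 plasmacytoid dendritic cell markers summed to 971.8, 920.5, 1263 and 1052, and the 6 T cell markers to 186.7, 219.1, 199.9 and 184.0. Of the T cell markers 1, 2, 1 and 1 exceeded the floor on these arrays. Cd8a, the only 1 above it on all arrays, gave 120.9, 122.8, 125.9 and 114.5 of those sums. The part of these cells in the differences of the 10 genes was not tested, and no array of 1D8 cells alone was analysed here. Epithelial and mesothelial markers above the floor numbered 9 and 10 of 12 in the live and irradiated cocultures, 5 in conditioned medium and 3 in the control.

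The rest of the pathway was described by lists of genes outside the 10, counted at the brightest probe set of each gene. Their other probe sets, where no array fell under the floor, were counted separately, after the data were seen. These 2 counts disagreed for most lists, so no direction is given for a list as a whole. No share or median was computed over the other probe sets of all genes. Whether a lean among them is particular to a list was therefore not tested. Of 13 ER chaperones and cochaperones, 12 had a ratio to the control below 0 in live coculture, 12 in irradiated coculture and 11 in conditioned medium, with median log2 ratios of -0.43, -0.36 and -0.19. Of all genes above the floor, 53.5%, 53.8% and 49.8% had a ratio below 0. Of 13 other probe sets of the chaperone genes, 7, 6 and 6 were below 0, with medians of -0.02, 0.02 and 0.13. At the brightest probe sets the 1 chaperone gene past 2-fold was Sil1, the nucleotide exchange factor of BiP, with 94.5 and 89.2 in the cocultures, 176.8 in conditioned medium and 187.7 in the control. It was 2.10-fold lower in the irradiated coculture. Genes of ER-associated degradation had 14, 15 and 13 of 15 below 0 at the brightest probe sets, with medians of -0.47, -0.39 and -0.31. Of their 18 other probe sets 8, 9 and 10 were below 0, with medians of 0.08, 0.04 and -0.06. For Sel1l, the scaffold of the HRD1 ligase, the other sets had log2 ratios from -0.05 to 1.62 in live coculture. Selenos, a selenoprotein that recruits the extracting ATPase, had signals of 737.7, 761.6 and 640.5 on the treated arrays and 1621 in the control. It was 2.20-fold, 2.13-fold and 2.53-fold lower, and both of its other probe sets were also more than 2-fold lower in all 3 comparisons. Of 16 measured genes of translocation into and export from the ER, of 18 listed, 13, 12 and 13 were below 0 (medians of -0.22, -0.19 and -0.37) and 0 were 2-fold apart. Their 20 other probe sets leaned the other way, with 7 below 0 in each comparison, medians of 0.25, 0.20 and 0.19, and 4, 2 and 3 at least 2-fold higher. The probe sets of Sec61a1, the pore of the translocon, disagreed. The brightest read 1011, 1092 and 1130 on the treated arrays and 1857 in the control. Of the other 5, 3 were higher than the control and 2 lower in each comparison, with log2 ratios from -0.36 to 1.46 in live coculture.

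The 10 measured genes of disulfide formation were mixed, with medians of -0.08, 0.03 and -0.12, while 6 of their 7 other probe sets were above 0 in each comparison. Ero1a, the oxidase that reloads the disulfide isomerases and is also induced by hypoxia, had signals of 3204 and 4092 in the live and irradiated cocultures, 872.0 in conditioned medium and 581.5 in the control. It was 5.51-fold and 7.04-fold higher in the cocultures, with a log2 ratio of 0.58 in conditioned medium. Its 2 other probe sets were higher too, with log2 ratios of 2.72 and 3.29 in live coculture, 2.83 and 3.58 in irradiated coculture, and 0.90 and 1.55 in conditioned medium. At the brightest probe sets Ero1a was the only gene of that list at least 2-fold apart from the control. Of the other probe sets 2 were at least 2-fold higher in each comparison, and 0 were 2-fold lower. In conditioned medium these included a set of Ero1b, with 267.3 against 116.7 in the control. The log2 ratio of Ero1b there was 0.23 at its brightest probe set.

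The list around PERK and ATF4 split at the brightest probe sets. Of 14 genes, 4 were at least 2-fold higher and 0 lower in the live coculture (3.36% and 2.23% of all genes). In the irradiated coculture 3 were higher and 1 lower (3.47% and 2.25%). In conditioned medium 1 was higher and 1 lower (2.30% and 1.41%). The medians were 0.40, 0.06 and 0.06. Of 5 other probe sets above the floor, 4 were above 0 in each comparison, with medians of 0.93, 1.27 and 0.25. Of these 5 sets 2, 3 and 0 were at least 2-fold higher, and 0 were 2-fold lower. Ddit3 encodes CHOP, the transcription factor that promotes death under long ER stress. Its signals were 179.1 and 116.5 in the live and irradiated cocultures, 181.7 in conditioned medium and 332.4 in the control, and it was 2.85-fold lower in the irradiated coculture. A dimmer probe set of Ddit3 read 92.9, 33.4 and 3.6 on the treated arrays and 17.7 in the control, so it exceeded the floor in the live coculture only and ran the other way there. Asns, an asparagine synthetase gene activated by ATF4, had signals of 394.7 in live coculture, 126.5 in irradiated coculture, 196.2 in conditioned medium and 150.6 in the control. Live coculture was 2.62-fold above the control, with a log2 ratio of 1.62 at its other probe set, and irradiated coculture was below it at both (-0.25 and -0.68).

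Sesn2 and Ddit4, inhibitors of mTOR complex 1 that several stresses induce, were higher on all treated arrays. Sesn2 read 232.9, 314.4 and 172.7 on the treated arrays and 98.9 in the control. Ddit4 read 432.2, 1063 and 281.4 against 105.5. Among the 8 genes of the sensors and the proteases that process ATF6, 0 were 2-fold apart at the brightest probe set. Of their 6 other probe sets above the floor 5, 3 and 3 were below 0 in live coculture, irradiated coculture and conditioned medium, and 1, of Creb3, was at least 2-fold lower in conditioned medium. Creb3, a membrane-bound transcription factor of the ER, was lower at all 3 of its probe sets on every treated array. The brightest read 565.0, 652.5 and 515.2 on the treated arrays and 807.7 in the control, and the set past 2-fold read 479.6, 479.4 and 318.2 against 874.5. The brightest probe set of Ern1, which encodes IRE1, was 1.94-fold higher in conditioned medium (612.3 against 315.4 in the control), while 3 others had log2 ratios of 0.08 to 0.42 there. The brightest probe set of Atf6 read 212.6, 204.3 and 279.3 on the treated arrays and 334.3 in the control. Its other probe sets disagreed in sign in both cocultures. In conditioned medium both ran opposite to the brightest, with log2 ratios of 0.55, from a control signal under the floor, and 0.36. Creb3, Ern1 and Atf6 were named after their values were seen.

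**Figure D3:**
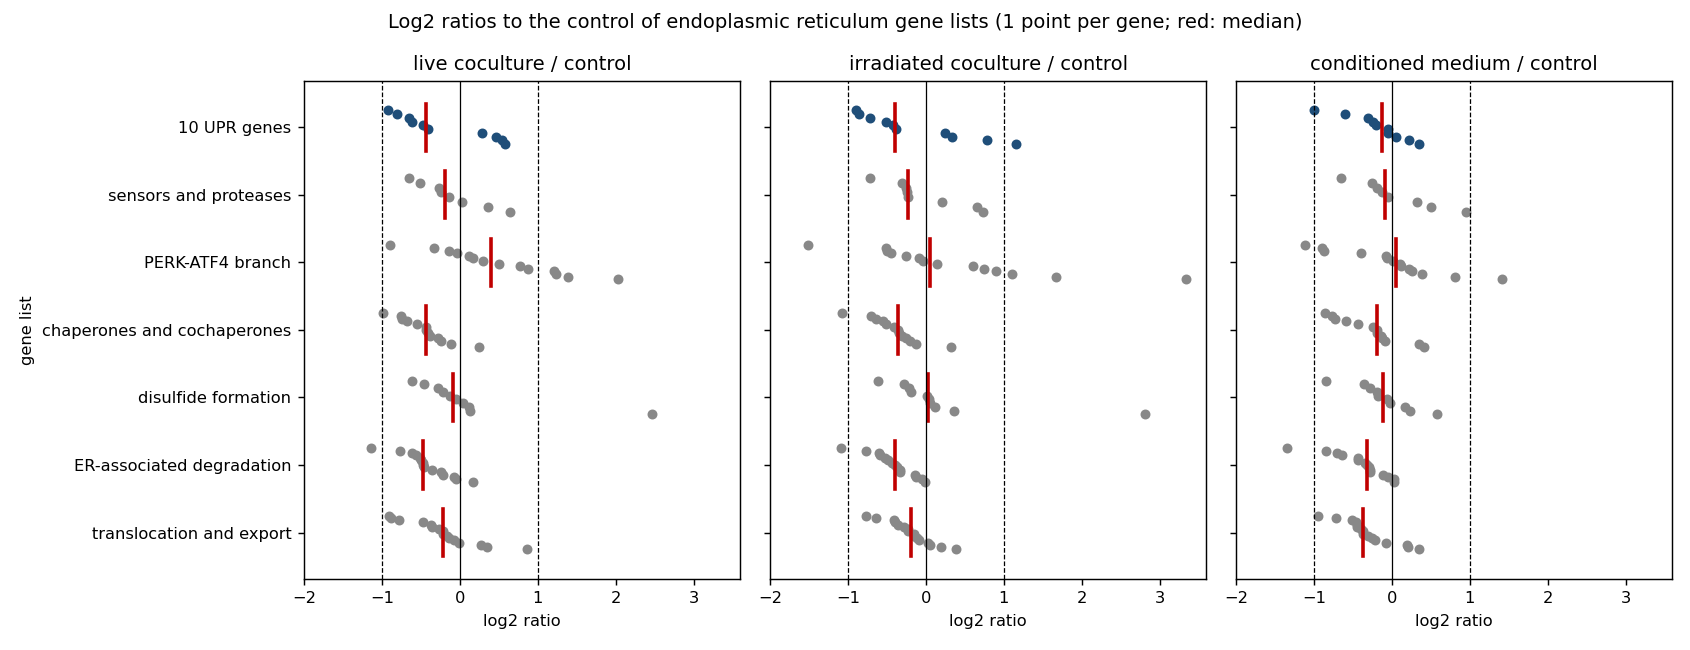
Log2 ratios of each treated array to the control (x axis) by gene list (y axis), 1 point per gene at its brightest probe set, with the list median in red and 2-fold marked by dashed lines. At these probe sets chaperones and degradation genes lie mostly left of 0 in all panels, which their other probe sets, not drawn, do not, and the genes far to the right in the cocultures are Ddit4 and Ero1a.

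Comparisons between treated arrays leave the control out. Most of the 10 genes differed little between the live and irradiated cocultures. At the brightest probe sets 0 of 10 genes were 2-fold apart in either direction (0.368% of all genes were higher in the live coculture and 0.302% lower). With shares this small, a count of 0 says little about 10 genes. At 1.5-fold 0 were higher (2.56% of all genes) and 1 was lower (1.82%). The probe-set SD was 0.23 in this comparison. At the brightest probe sets Xbp1 stood furthest from 0. Its signal in the live coculture was 1.54-fold lower (4059 against 6246 in the irradiated coculture), and all 4 of its probe sets were lower, with log2 ratios of -0.62, -0.53, -0.48 and -0.10. For Herpud1 the probe sets had ratios of 0.20 and 0.68, and for Atf4 of 0.22 and 0.52, higher in the live coculture at both. The other 7 genes had brightest ratios between -0.21 and 0.09.

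Between the irradiated coculture and conditioned medium, 0 genes were at least 2-fold higher (1.95% of all genes) and 0 lower (1.24%). At 1.5-fold 1 was higher (5.07%) and 2 were lower (5.63%). Xbp1 was 1.75-fold higher in the irradiated coculture (6246 against 3570), and its 4 log2 ratios ran from 0.49 to 0.81, so all 4 exceeded the probe-set SD of 0.27. Sdf2l1 was 1.62-fold lower (384.3 against 620.8), and the brightest probe set of Herpud1 was 1.53-fold lower, its other 1.20-fold lower. Pdia4 was 1.48-fold higher. Xbp1 and Sdf2l1 therefore differed in opposite directions in a comparison that does not use the control array.

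Between the live coculture and conditioned medium, 0 of the 10 genes were at least 2-fold higher at the brightest probe set (1.75% of all genes) and 0 lower (1.14%). At 1.5-fold 0 were higher (5.49%) and 1 was lower (5.17%). Sdf2l1 was 1.52-fold lower in the live coculture (409.5 against 620.8). The brightest probe set of Atf4 was 1.43-fold higher and the other 2.05-fold higher. Both Edem1 probe sets were lower, with log2 ratios of -0.36 and -0.47. Calr differed little, at -0.02, -0.05 and -0.09 over its 3 probe sets.

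**Figure D4:**
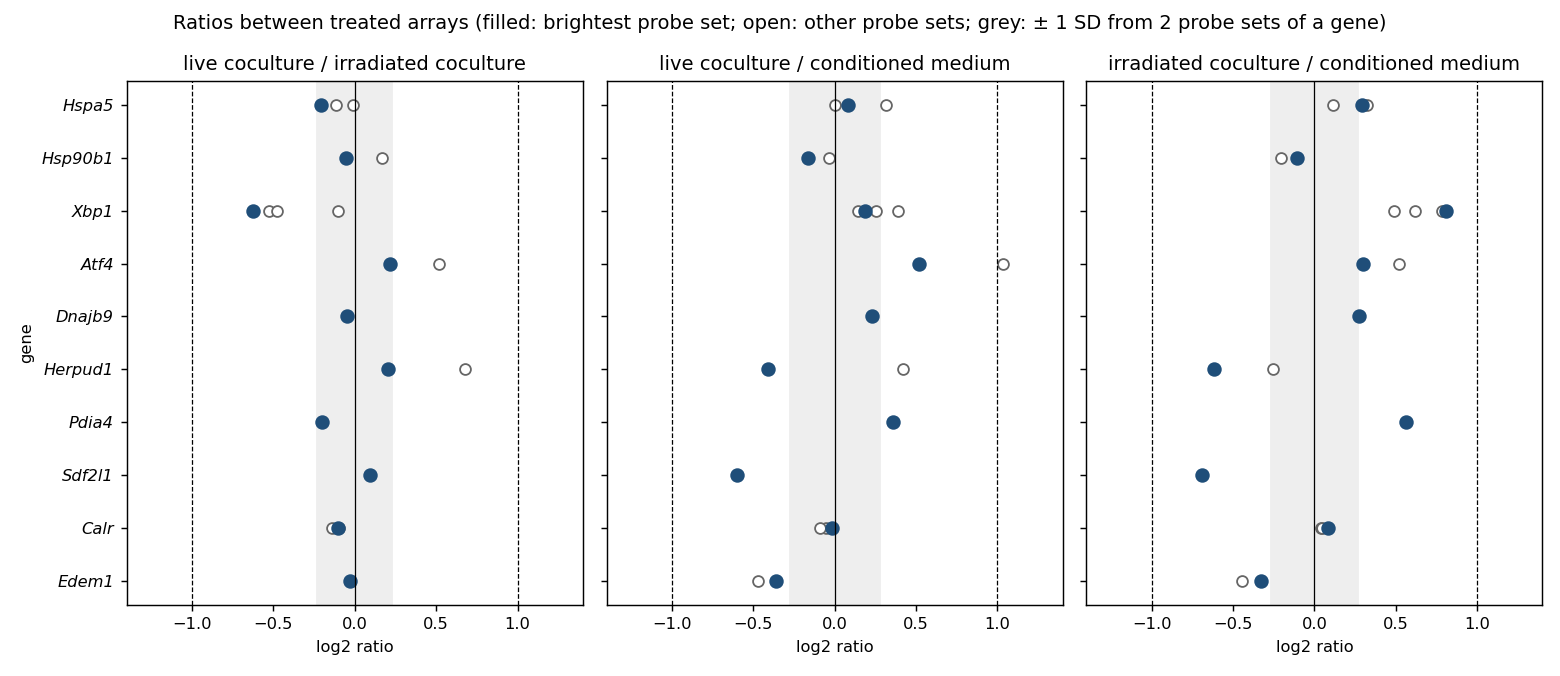
Log2 ratios between treated arrays (x axis) for the 10 genes (y axis), with filled points for the brightest and open points for other probe sets, dashed lines at 2-fold and a grey band of 1 probe-set SD either side of 0. Xbp1 lies to the left in live against irradiated coculture and to the right in irradiated coculture against conditioned medium, where Sdf2l1 lies to the left.

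The 5 genes whose 3 log2 ratios to the control lay nearest to those of Hspa5, by Euclidean distance among 9837 genes above the floor, were Arhgap30 (distance 0.06), B4galnt1 (0.07), Rab1b (0.07), Zeb2 (0.08) and Iqsec1 (0.09). Rab1b, a GTPase of transport from the ER to the Golgi, read 679.4, 788.6 and 673.8 on the treated arrays and 1333 in the control. The likeness rests on 4 arrays.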

How the data were processed

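RNA of sorted BMDC was measured on 4 Affymetrix mouse arrays, 1 per condition. The deposited values are 1 linear signal intensity per probe set, made by the authors with GCOS 1.4 and MAS5, per the submitters' processing notes; the scaling target is not given in the sources used here. Without the lowest and highest 2% of signals every array averaged 150.0, so values were used as deposited. The arrays were still not alike. The median signal was 46.8, 45.3 and 46.6 on the live, irradiated and conditioned medium arrays and 38.7 on the control array. Genes above the floor made up 62.5%, 62.0% and 61.8% on the treated arrays and 58.8% on the control array, which all ratios to the control share. MAS5 subtracts mismatch signal, which makes dim probe sets noisy, and a common mean forces lower genes to be balanced by higher ones.

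The table held 45101 probe sets. After removing 64 Affymetrix controls, 34945 had 1 gene in the platform annotation, 932 had several and 9160 were not listed. Symbols were checked through Entrez identifiers against RefSeq (GRCm38.p6), where 34741 matched and 0 changed. For each gene the brightest probe set, by mean log2 signal, was used. Signals below 44.3, the 50th percentile, were set to that floor before log2 ratios were taken, and genes at least 2-fold apart were counted. Where the dimmer signal is under the floor, a fold is a lower bound. Probe sets with the suffix _s_at or _x_at, which some of those of Hspa5, Xbp1, Atf4 and Calr carry, may share probes with other transcripts. With 1 array per condition no test was possible. The number of arrays limits the precision.

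Alternatives were floors at the 25th and 75th percentiles (12.9 and 155.6), quantile normalization, median centring of the arrays over probe sets above the floor, the mean over probe sets, and a 3-fold threshold; a 1.5-fold threshold and counts over the other probe sets of the pathway lists were added after seeing the data. The genes, lists and alternatives were chosen with earlier results of these data known. Named genes were the 10 members and the 5 genes nearest to Hspa5. Up to 4 genes per other list, among those 2-fold apart from the control, were also named. Jchain, Sdc1, Krt19 and other markers come from the marker lists. Sel1l, Sec61a1, Creb3, Ern1, Atf6 and Ero1b were named after their values were seen. Motif searches used RefSeq promoter sequences. Scripts were tested on simulated data and ran in Python 3.11.15 with numpy 2.4.6, pandas 2.3.3 and matplotlib 3.10.9.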

Additional observations from a re-analysis of the deposited data

How the results depend on the processing

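Both 2-fold calls depended on the processing. The call of Xbp1 in the irradiated coculture against the control held under both other floors, quantile normalization and median centring, but the count was 0 with the mean over probe sets and 0 at 3-fold. The call of Hspa5 in conditioned medium held under both floors and median centring, and the count was 0 after quantile normalization, 0 with the mean over probe sets and 0 at 3-fold. Median centring added 1 gene, Hspa5, at least 2-fold lower in the live coculture. At 1.5-fold, chosen after seeing the data, 4 genes were lower in the live coculture, 3 lower and 2 higher in the irradiated coculture and 2 lower in conditioned medium, each against the control. Calr left these counts after quantile normalization in the live coculture and conditioned medium, and Herpud1 in the live coculture and Hspa5 and Pdia4 in the irradiated coculture with the mean over probe sets. Xbp1 and Atf4 reached 1.5-fold higher in the live coculture after quantile normalization, and median centring brought Hsp90b1 in the live coculture and Calr in the irradiated coculture to 1.5-fold lower. Between treated arrays that threshold gave 1 lower for live against irradiated coculture, 1 lower for live coculture against conditioned medium, and 1 higher and 2 lower for irradiated coculture against conditioned medium.

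The median log2 ratio to the control ranged over the alternatives from -0.56 to -0.15 in the live coculture, -0.47 to -0.16 in the irradiated coculture and -0.24 to -0.03 in conditioned medium. Of 30 ratios of single genes to the control, 2 changed sign after quantile normalization, 1 after median centring and 3 with the mean over probe sets. Under either floor 0 changed, but neither floor could change a sign. The changes were those of Hsp90b1 in the live coculture and conditioned medium, and of Atf4, Dnajb9 and Edem1 in conditioned medium. Median centring moved the median of genes above the floor by -0.12, -0.07 and -0.11 in the 3 comparisons with the control. Quantile normalization moved it by -0.06, -0.04 and -0.05. No paired analysis was possible because each condition had 1 sample.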
